A study of Mus musculus with 12 samples.

Results

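The cytosolic sulfotransferases are soluble liver enzymes that move a sulfonate group from the donor 3'-phosphoadenosine-5'-phosphosulfate (PAPS) to hydroxyl and amine groups. Steroids, bile acids, phenols, catecholamines and many drugs become more soluble in this way, and sulfated hormones no longer bind their receptors. The 10 genes described here were the sulfotransferase rows Sult1a1, Sult1b1, Sult1c2, Sult1d1, Sult1e1, Sult2a1, Sult2a2, Sult3a1, Sult3a2 and Sult5a1, out of 24527 rows in the deposited count table. They were chosen by symbol, with earlier results of these data known. The table held 11 other sulfotransferase rows, which are described only where a result touches them.

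Messenger RNA from mouse liver was sequenced in 12 libraries, all labelled 39 weeks of age, with 3 in each of 4 groups. All were offspring of CF1 females and B6SJL males. Natural females and natural males came from mating, and IVF females and IVF males from in vitro fertilization with a protocol credited to the Jackson Laboratory. The labels give no genetic change and no treatment beyond the mode of conception. They also do not state outright that each library is a separate animal, so p-values measure the spread between these samples, which may be technical.

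In the adult mouse liver the Sult2a and Sult3a genes are known for higher expression in females. Growth hormone reaches the liver in pulses in males and more evenly in females, and this pattern sets the level of many such genes through STAT5 and the repressors BCL6 and CUX2. Sult1e1, the estrogen sulfotransferase, inactivates estrogens and is known to be low in the liver of the healthy adult mouse.

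Total counts ranged from 6826534 to 27832271 per library, and 13204 genes passed the filter on low counts. All 10 sulfotransferases passed it, Sult2a1, Sult2a2, Sult3a1 and Sult3a2 through the female libraries alone. The libraries with the smallest totals, IVF female replicate 1 with 6826534 counts and natural female replicate 2 with 8056230, are called shallow below. They also had the highest Sult1a1 levels of their groups, so several values below are also given without them. Xist lay between 772 and 1354 CPM in the 6 female libraries and at no more than 1.35 CPM in the 6 male libraries. The hepatocyte markers Alb, Apoa1, Ttr, Serpina1c, Cps1, Tat, Hnf4a and Asgr1 summed to between 71549 and 105595 CPM in every library, so that the liver label held. The largest sum of 4 pancreas, 3 fat or 4 kidney markers in any library was 1.10 CPM. CPM are counts scaled to a common library total with TMM factors, and RPKM are these values per kilobase of exon.

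The near-identical copies come first, because they decide which read could be assigned to which gene. On GRCm38, which is the mm10 build named in the submitters' processing notes, GENCODE M21 places Sult2a2 on chromosome 7 from 13733505 to 13779636 (plus strand) and Sult2a1 from 13796246 to 13837409 (minus strand). Their annotated coding sequences were identical at 570 of 582 aligned bases, or 97.9%. Sult2a2 is annotated with only 582 coding bases, against 855 in Sult2a1. The stretch below, bases 382 to 471 of both coding sequences, is shown because it is the kind of sequence from which a read cannot be placed with confidence. The capital marks the position that differs.

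Sult2a1: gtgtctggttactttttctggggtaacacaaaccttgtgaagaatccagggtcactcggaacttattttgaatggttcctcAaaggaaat
Sult2a2: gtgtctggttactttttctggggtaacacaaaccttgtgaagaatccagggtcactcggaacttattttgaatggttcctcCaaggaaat

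Of all windows of 50 bases in the annotated transcript, 62.1% in Sult2a2 and 33.2% in Sult2a1 also occurred in another gene, mostly in each other or in Sult2a5 and Sult2a4. With windows of 75 bases the shares were 47.2% and 19.5%. The division of reads between Sult2a1 and Sult2a2 is therefore uncertain, since how multi-mapping reads were handled is not given in the sources used here. Sult3a1 (chromosome 10, 33857721 to 33879532, plus strand) and Sult3a2 (33766424 to 33786704, minus strand) were identical at 799 of 879 coding bases, or 90.9%. Only 6.15% of the windows of 50 bases in Sult3a1 and 7.72% of those in Sult3a2 occurred in the other gene. The last 90 coding bases, 790 to 879, show how the pair differs, with differing bases in capitals.

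Sult3a1: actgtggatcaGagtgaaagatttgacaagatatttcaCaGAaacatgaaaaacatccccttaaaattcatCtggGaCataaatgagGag
Sult3a2: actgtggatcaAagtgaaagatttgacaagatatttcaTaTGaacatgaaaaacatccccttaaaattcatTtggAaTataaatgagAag

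Sult1b1 (chromosome 5, 87513339 to 87538195), Sult1d1 (87554645 to 87569027) and Sult1e1 (87575969 to 87591594) form a row on the minus strand and shared 0% of their windows of 50 bases with any other gene. Sult1c2 (chromosome 17, 53829637 to 53846339) shared 0.723% and Sult5a1 (chromosome 8, 123140192 to 123158315) 1.78%. Sult1a1 (chromosome 7, 126672865 to 126676432) shared 9.19%, mostly with the gene model Gm6939. For these 6 genes an ambiguous read is a minor concern.

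Levels per length put the genes in a different order in each sex. In natural females Sult1a1 stood at 432 ± 212 RPKM (SD, n = 3), Sult3a1 at 347 ± 268, Sult2a2 at 331 ± 70.4 and Sult2a1 at 316 ± 67.5. Neighbours among these levels differed by less than the spread between libraries. Sult3a2 followed at 134 ± 147 RPKM and Sult1d1 at 87.4 ± 13.2, with overlapping libraries. Far below lay Sult1b1 at 6.76 ± 2.15, Sult1c2 at 4.21 ± 1.45, Sult5a1 at 2.38 ± 1.24 and Sult1e1 at 0.825 ± 0.894 RPKM, each overlapping its neighbour in the order.

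In IVF females Sult3a1 led at 811 ± 415 RPKM (SD, n = 3), ahead of Sult1a1 at 469 ± 169, Sult3a2 at 370 ± 261, Sult2a2 at 358 ± 257 and Sult2a1 at 318 ± 236. The libraries of these 5 genes overlapped with those of their neighbours in the order. Sult1d1, at 94.4 ± 5.48 RPKM, lay below Sult2a1 in every library of the group. Sult1b1 had 11.7 ± 2.22, Sult1e1 5.58 ± 4.93 and Sult1c2 5.07 ± 2.57 RPKM, and Sult5a1 had 2.67 RPKM with libraries from 1.24 to 4.95.

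In natural males the order was short and well separated. Sult1a1 stood at 201 ± 12.8 RPKM (SD, n = 3), Sult1d1 at 71.8 ± 22.1, Sult1b1 at 7.86 ± 1.97, Sult5a1 at 2.32 ± 0.915 and Sult1c2 at 0.994 ± 0.254, with no overlap between neighbours. Sult1e1, at 0.580 ± 0.549, overlapped Sult1c2. IVF males had the same 3 leading genes: Sult1a1 at 98.1 ± 16.1 RPKM, Sult1d1 at 35.5 ± 15.3 and Sult1b1 at 7.56 ± 1.44. Sult2a1, Sult2a2, Sult3a1 and Sult3a2 each had a mean of at most 0.0643 RPKM in either male group.

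**Figure D1:**
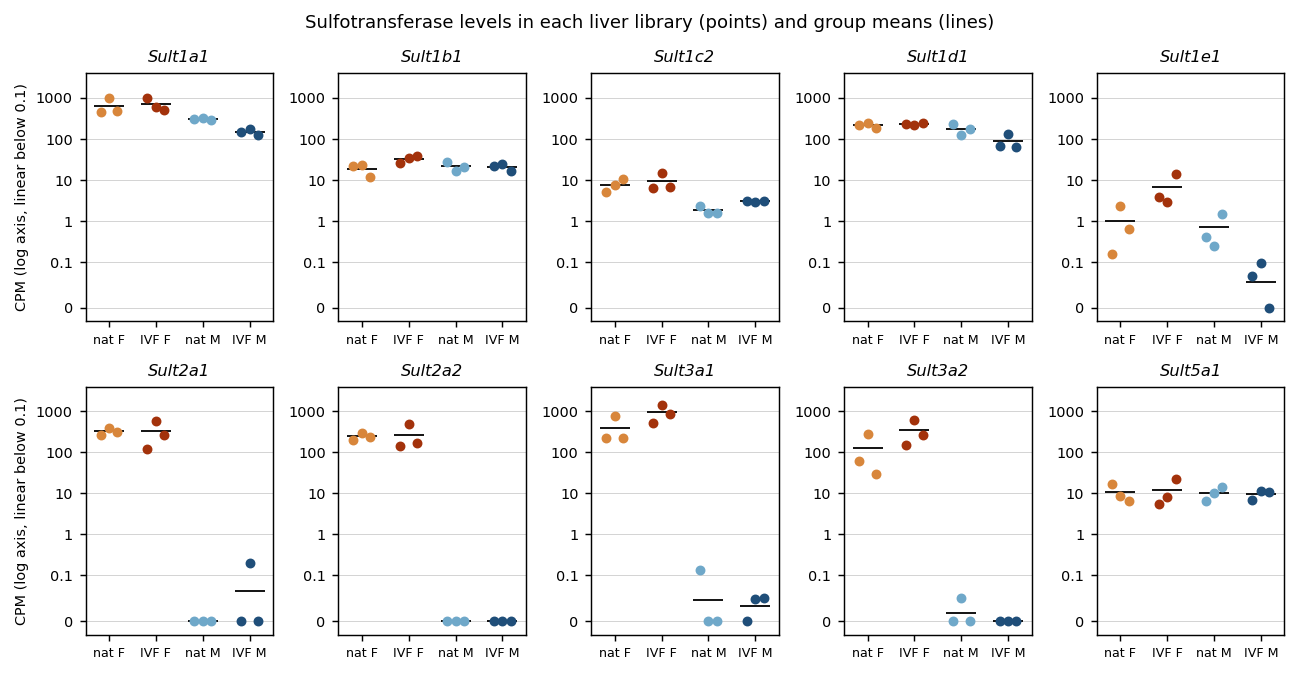
Level of each of the 10 sulfotransferases (CPM, log axis that is linear below 0.1) in the 12 libraries, with 3 points per group (nat, natural; F, female; M, male) and the group mean as a line. Sult2a1, Sult2a2, Sult3a1 and Sult3a2 sit between 30.1 and 1453 CPM in all females and at or below 0.197 CPM in all males. Sult1b1, Sult1d1, Sult1e1 and Sult5a1 overlap between the sexes.

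The makeup of the message of these 10 genes differed accordingly. Sult2a8, which is not one of the 10, is left out of the sums below. It stood at 305 ± 23.0 RPKM (SD, n = 3) in natural males and 279 ± 64.8 in IVF males. The 10 genes summed to means of 284 and 145 RPKM in these groups. In natural and IVF females Sult2a8 had 162 ± 45.5 and 154 ± 38.9 RPKM. The 10 genes together took 0.154% to 0.446% of all counts in female libraries and 0.0199% to 0.0514% in male libraries. Of the summed RPKM of the 10 genes, the 4 Sult2a and Sult3a genes made up 54.3% to 85.7% in females and no more than 0.130% in males. Sult1a1 and Sult1d1 made up 91.3% to 96.6% in males and 13.6% to 44.7% in females. Within natural females the Sult2a and Sult3a share varied little, between 66.0% and 68.8%, although the summed RPKM of the 10 genes ranged from 1179 to 2547. IVF females ranged from 54.3% in replicate 1, a shallow library, to 85.7% in replicate 2.

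**Figure D2:**
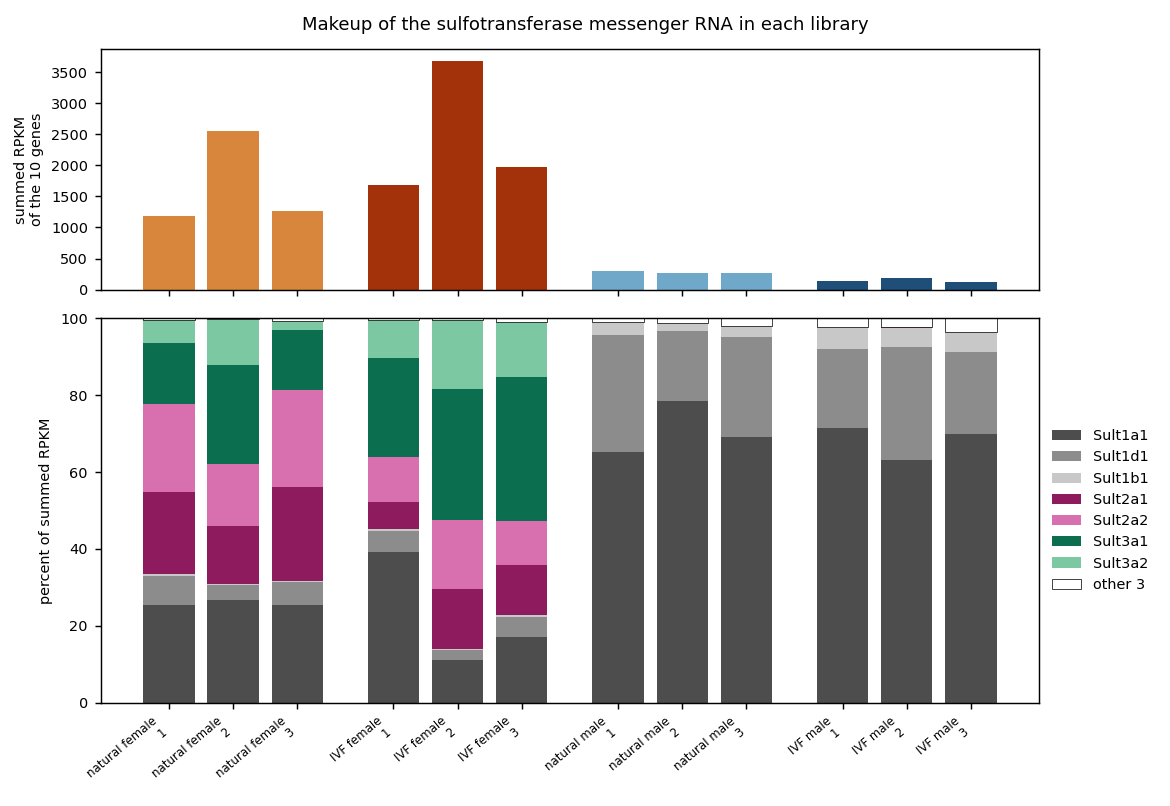
Summed RPKM of the 10 sulfotransferases in each library (upper bars) and the percent of that sum held by each gene (lower bars; other 3 are Sult1c2, Sult1e1 and Sult5a1). Of these 10 genes, female libraries hold 1179 to 3679 RPKM, mostly Sult2a1, Sult2a2, Sult3a1, Sult3a2 and Sult1a1. Male libraries hold 118 to 307 RPKM, almost all Sult1a1 and Sult1d1. Sult2a8 is not among the 10 and is not shown.

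The hydroxysteroid sulfotransferases Sult2a1 and Sult2a2, which act on dehydroepiandrosterone and bile acids, were near absent in males. Sult2a1 had 258, 395 and 315 CPM in the 3 natural females and 121, 591 and 262 CPM in the 3 IVF females. It had 0 counts in 5 of the 6 male libraries and 4 counts in IVF male replicate 2, or 0.197 CPM. Sult2a2 had 199, 302 and 234 CPM in natural females, 145, 485 and 165 CPM in IVF females and 0 counts in all 6 male libraries. In both genes IVF female replicate 2 was the highest library, and the female and male libraries did not overlap.

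Against the level that 3 counts over all 6 male libraries would give, 0.0246 CPM, Sult2a2 was at least 10894-fold higher in females. Sult2a1, with 4 male counts, was 10587-fold higher in females (95% exact interval 4135 to 38860). Such an interval or floor reflects counting error alone, as reads are not independent molecules. By edgeR's quasi-likelihood test with Benjamini-Hochberg adjustment, the adjusted p-value for Sult2a1 was 0.000103 in natural and 0.000141 in IVF animals. For Sult2a2 it was 0.000244 and 0.000257. Both genes passed the filter through the female libraries alone and had to differ, so nothing is read from these p-values. The ratio of Sult2a1 to Sult2a2 in CPM lay between 0.837 and 1.59 in the 6 female libraries.

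The Sult3a enzymes sulfate amines. Sult3a1 had 217, 759 and 226 CPM in natural females and 505, 1453 and 856 CPM in IVF females. In males it had 3, 0 and 0 counts in the natural group and 0, 1 and 1 counts in the IVF group. Pooled over both modes of conception its level was 17264-fold higher in females (95% exact interval 7397 to 53170). The adjusted p-value by edgeR was 2.17e-05 in natural and 1.39e-05 in IVF animals. Sult3a1 too passed the filter through females alone, so nothing is read from these p-values.

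Sult3a2 had 63.0, 281 and 30.1 CPM in natural females and 153, 617 and 262 CPM in IVF females. The only male count was 1, in natural male replicate 2. Natural females differed among themselves by 9.34-fold from lowest to highest, the widest range of the 4 female-restricted genes in that group. Between the sexes edgeR gave adjusted p-values of 0.00183 in natural and 0.00104 in IVF animals. Again the filter was passed through females alone, so nothing is read from these p-values. Sult3a2 moved with Sult3a1 across females but not in a fixed ratio: its RPKM was 0.165 to 0.460 of that of Sult3a1 in natural females and 0.377 to 0.528 in IVF females. Natural female replicate 3 had the lowest ratio.

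The sequence before the annotated start of both Sult3a genes was searched for motifs of factors known in sex-biased or liver-specific expression. RefSeq sequences of GRCm38.p6 were used, which held windows for 8 of the 10 genes and none for Sult2a1 and Sult2a2. In a window of 250 bases before to 50 bases after the start, Sult3a1 held the STAT5 and BCL6 motif TTCNNNGAA and the HNF6 and CUX2 motif ATTGAT. Sult3a2 held the FOXA motif TNTTTAC at 2 places and the TATA motif TATAAA at 2 places. Matches on either strand were counted, and capitals mark them in the stretches printed here, chr10:33857588-33857678 on the plus strand and chr10:33782116-33782207 on the minus strand.

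Sult3a1: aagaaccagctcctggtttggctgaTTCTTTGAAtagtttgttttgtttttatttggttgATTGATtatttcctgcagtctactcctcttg
Sult3a2: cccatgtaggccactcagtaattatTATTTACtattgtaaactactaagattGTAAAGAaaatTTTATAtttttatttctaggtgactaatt

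The first stretch covers bases -134 to -44 from the RefSeq start of Sult3a1, and the second bases -92 to -1 from that of Sult3a2, which lies inside the gene as GENCODE M21 draws it. Of 32851 such windows in the RefSeq table, 8.30% held TTCNNNGAA, 7.54% ATTGAT, 12.4% TNTTTAC and 13.6% TATAAA. A match describes letters in this window only. The other motifs searched were the HNF4A motif CAAAGTCCA, found in 0.475% of windows, the C/EBP motif TTGCNNAA in 10.8% and the nuclear receptor motif AGGTCA in 16.3%. Among the 8 genes with a window, 1 held CAAAGTCCA (Sult1b1), 1 held TTGCNNAA (Sult1c2) and 2 held AGGTCA (Sult1b1 and Sult1e1). TTCNNNGAA and ATTGAT were each in 1 of the 9 windows of these genes (Sult3a1). TNTTTAC and TATAAA were each in 2 of the 9, those of Sult3a2 and Sult1d1. TNTTTAC was also in 7 of 11 windows of the other sulfotransferase genes, among them Sult1c1, which had no count.

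For the Sult2a family the table held windows of 4 close relatives, Sult2a3, Sult2a4, Sult2a5 and Sult2a6. The first 3 of these each held TNTTTAC at 2 places, on opposite strands and 37 bases apart, and are shown because the letters around the matches are so alike. Sult2a6 held it at 1 place only, at -119. The motif was not particular to these relatives. Sult2a8, a less similar member of the cluster that was higher in males, also held TNTTTAC in 1 of its windows, at -206. The stretches are chr7:14123059-14123152 and chr7:13989655-13989748 on the minus strand and chr7:13623886-13623966 on the plus strand, with motif matches in capitals.

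Sult2a3: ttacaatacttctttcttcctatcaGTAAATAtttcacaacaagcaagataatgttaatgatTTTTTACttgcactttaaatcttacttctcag
Sult2a4: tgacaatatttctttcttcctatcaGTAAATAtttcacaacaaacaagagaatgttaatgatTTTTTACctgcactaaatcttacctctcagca
Sult2a5: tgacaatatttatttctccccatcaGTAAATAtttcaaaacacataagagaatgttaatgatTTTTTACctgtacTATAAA

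These relatives were expressed in the female libraries and had 0 counts in all 6 males, as had Sult2a6. Sult2a3 ranged from 8.16 to 158 CPM in females, Sult2a5 from 16.1 to 104 CPM, Sult2a6 from 5.94 to 15.4 CPM and Sult2a4 from 2.09 to 9.23 CPM. Sult2a1 and Sult2a2 held 79.3% to 91.1% of the counts of Sult2a1 to Sult2a6 in each female library. Because their sequences overlap, some reads of the smaller genes may belong to the larger ones. Summed over Sult2a1 to Sult2a6, which removes the question of how reads were divided among them, males had 4 counts in all, in 1 library.

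At the far end of the same cluster the pattern changed. Sult2a7 was lower in males without being absent, with 0.892 to 3.74 CPM in males and 20.7 to 139 CPM in females. Its log2 fold change, male against female, was -3.02 ± 0.62 (SE) in natural and -5.30 ± 0.69 in IVF animals, with adjusted p-values of 0.0318 and 0.00145. Sult2a8, which sulfates bile acids, was the reverse. It had 741 to 1153 CPM in the 6 males and 362 to 652 CPM in the 6 females, and averaged over both modes of conception it was higher in males by 0.88 ± 0.19 (SE) on the log2 scale (adjusted p = 0.0185 by edgeR). Of the 11 other sulfotransferase rows, 6 passed the filter, 5 of these were called lower in males in both modes of conception, and Sult2a8 was called only in the averaged contrast. Over all genes, 0.879% were called lower in males in natural and 1.28% in IVF animals. Sult2a3, Sult2a4, Sult2a5 and Sult2a6 passed the filter through females alone and had to differ, so that nothing is read from their share. Sult1c1 and Sult6b2 had no count, and Sult2b1, Sult4a1 and Sult6b1 had at most 2 counts in any library.

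**Figure D3:**
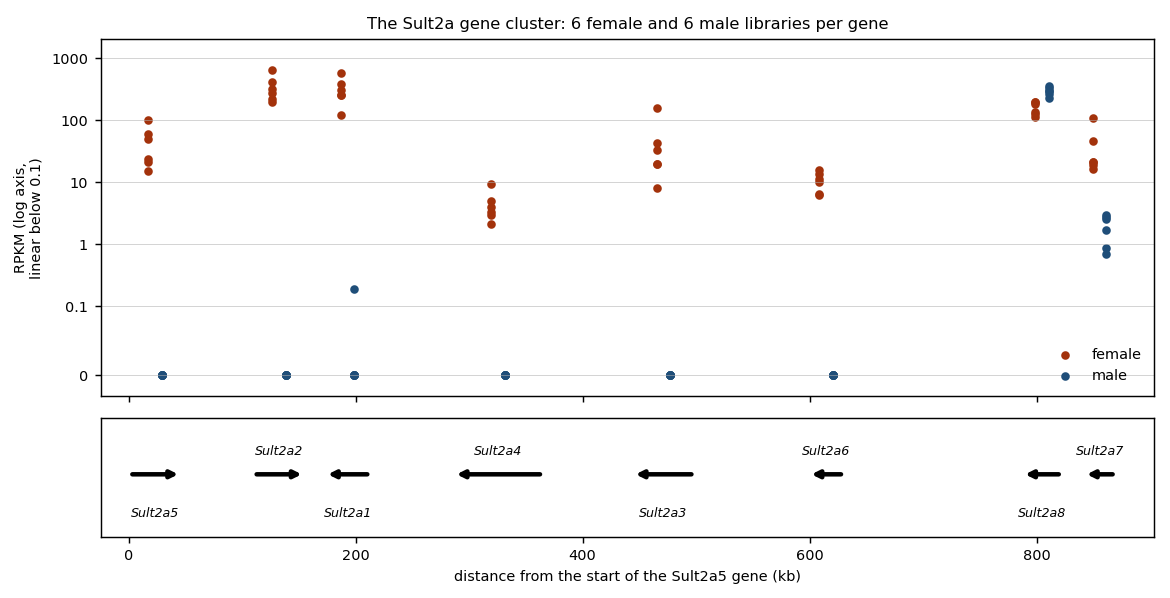
RPKM of the 8 protein-coding Sult2a genes (log axis, linear below 0.1) in the 6 female and 6 male libraries, above their positions and directions in kilobases from the start of Sult2a5. The 6 genes from Sult2a5 to Sult2a6 sit at 0 in males apart from 1 point of Sult2a1 at 0.193 RPKM, and Sult2a8 is higher in males.

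The SULT1 genes were expressed in both sexes. Sult1a1, the phenol sulfotransferase, had 451, 1020 and 483 CPM in natural females and 994, 619 and 508 CPM in IVF females. It had 301, 323 and 284 CPM in natural males and 148, 172 and 124 CPM in IVF males. The highest library of each female group was the shallow one, and no male library reached a female one.

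Averaged over both modes of conception, Sult1a1 was lower in males by a log2 fold change of -1.68 ± 0.24 (SE; adjusted p = 0.00145 by edgeR). The difference was -2.26 ± 0.35 in IVF animals (adjusted p = 0.00480). In natural animals it was -1.11 ± 0.33 and did not pass (adjusted p = 0.141), although DESeq2's Wald test called it (adjusted p = 0.0373). Without both shallow libraries the averaged value was -1.30 (adjusted p = 0.000325, edgeR), the IVF value -1.97 (adjusted p = 0.00041) and the natural value -0.64 (adjusted p = 0.128).

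Sult1c2 was low and female-biased. It had 5.13, 7.67 and 10.5 CPM in natural females, 6.38, 14.8 and 6.88 in IVF females, 2.38, 1.55 and 1.58 in natural males and 3.02, 2.95 and 3.15 in IVF males. Every female library lay above every male library. The log2 fold change in males was -2.07 ± 0.38 (SE; adjusted p = 0.0175) in natural, -1.64 ± 0.37 (adjusted p = 0.0424) in IVF animals and -1.86 ± 0.26 (adjusted p = 0.00138) on average by edgeR. The IVF call rested on few counts, 43 to 357 in females and 44 to 63 in males, and limma voom gave an adjusted p-value of 0.0591.

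Sult1d1, which sulfates dopamine and other catechols, had 216, 247 and 182 CPM in natural females and 229, 221 and 247 CPM in IVF females. Natural males had 231, 122 and 176 CPM and IVF males 68.9, 131 and 62.3 CPM. The natural groups overlapped, and the sex difference there was -0.28 ± 0.30 on the log2 scale (SE; adjusted p = 0.697). In IVF animals the groups did not overlap and males were lower by -1.41 ± 0.30 (adjusted p = 0.0330). The average of both, -0.85 ± 0.21, passed (adjusted p = 0.0341, edgeR). Without both shallow libraries neither call was kept, with -1.45 (adjusted p = 0.0521) in IVF animals and -0.82 (adjusted p = 0.0587) on average.

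Sult1e1, the estrogen sulfotransferase, was low and varied widely within groups. Natural females had 0.160, 2.28 and 0.637 CPM and natural males 0.411, 0.250 and 1.502 CPM, with overlapping libraries. IVF females had 3.86, 2.95 and 13.98 CPM, and IVF males 0.0687, 0.0984 and 0 CPM, or 1, 2 and 0 counts. Each IVF female library was above each library of the other 3 groups. Within IVF animals males were lower by -6.84 ± 1.25 on the log2 scale (SE; adjusted p = 0.0147 by edgeR), or 143-fold by pooled counts (95% exact interval 48.6 to 697, counting error only). The averaged sex difference was -3.54 ± 0.81 (adjusted p = 0.0247), and limma voom gave 0.0641. In natural animals the difference was -0.24 ± 0.97 and was not called (adjusted p = 0.925 by edgeR). The averaged value therefore came mainly from the IVF animals.

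Sult1b1, which sulfates thyroid hormones, and Sult5a1 were not called between the sexes. Sult1b1 had 21.6, 22.9 and 11.9 CPM in natural females, 25.8, 34.2 and 37.9 in IVF females, 27.5, 16.6 and 21.4 in natural males and 21.6, 24.7 and 16.8 in IVF males. In IVF animals its libraries did not overlap, with males at -0.64 ± 0.28 on the log2 scale (SE; unadjusted p = 0.0418, adjusted p = 0.308 by edgeR). In natural animals the groups overlapped and the value was 0.22 ± 0.28 (adjusted p = 0.750), which turned to -0.061 with library size alone as scaling and to -0.020 without natural female replicate 3. The averaged sex difference was -0.21 ± 0.20 (adjusted p = 0.544). Sult5a1 ranged from 5.49 to 21.9 CPM in females and from 6.35 to 14.4 CPM in males, with a difference of -0.17 ± 0.36 (adjusted p = 0.800 by edgeR). These p-values do not show that the sexes were alike.

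Counted together, 5 of the 10 genes were called lower in males among natural animals (Sult1c2, Sult2a1, Sult2a2, Sult3a1 and Sult3a2) and 8 of 10 among IVF animals, where Sult1a1, Sult1d1 and Sult1e1 joined them. The same 8 were called in the averaged contrast, which uses the same libraries. Over all 13204 genes tested, 0.879% were called lower in males among natural animals, 1.28% among IVF animals and 3.63% on average. The female and male libraries did not overlap, with males lower, for 6 of the 10 genes in natural animals (9.85% of all genes), for 9 in IVF animals (10.1%) and for 6 over all 12 libraries (2.54%). The 4 Sult2a and Sult3a genes had to differ to pass the filter at all, and the members were chosen with earlier results known. These counts therefore describe the set and do not test it. The median log2 fold change of the 10 genes was -1.59 in natural and -4.55 in IVF animals, against -0.02 and 0.01 over all genes. These medians are moved by the same 4 genes and likewise only describe the set.

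Leaving out IVF male replicate 1 or IVF male replicate 3 reduced the IVF count from 8 to 5. In bulk tissue, fewer cells of a type and less RNA per cell cannot be told apart. Markers of other liver cells also differed between the sexes. Of 6 macrophage markers, Clec4f and Vsig4 were called lower in males among IVF animals, as were 1.28% of all genes. On average 2 of 5 stellate cell and fibroblast markers (Lrat and Dcn) and 1 of 5 lymphocyte markers (Cd3g) were called lower, as were 3.63% of all genes. No cholangiocyte or sinusoidal endothelium marker was called. The summed level of the 6 macrophage markers was 118 to 188 CPM in IVF males, 243 to 361 in IVF females, 218 to 252 in natural males and 233 to 321 in natural females. No macrophage marker was at 0 in any group. Of 6 acute phase genes, listed below, 3 were called higher in natural males than in natural females (Saa1, Hp and Hpx). In that contrast 1.77% of all genes were called in either direction. The part of these genes and markers in the results was not tested.

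The second question was whether IVF changed these genes in adults. In females 0 of the 10 genes were called, as were 0% of all genes tested. At an unadjusted p under 0.05 there were 3 of the 10 by edgeR, Sult1b1, Sult1e1 and Sult3a1, and 488 of all genes, or 3.70%. DESeq2 and limma voom also called 0 of the 10.

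Sult1e1 had the largest difference, 3.00 ± 0.93 higher in IVF females on the log2 scale (SE; unadjusted p = 0.00743, adjusted p = 1). Sult1b1 was 0.80 ± 0.28 higher (unadjusted p = 0.0149, adjusted p = 1). These were the only 2 of the 10 genes whose IVF and natural female libraries did not overlap, against 7.42% of all genes. Sult3a1 was 1.23 ± 0.55 higher and Sult3a2 1.47 ± 0.76 higher, both with an adjusted p-value of 1 and with overlapping libraries. Without both shallow libraries the value for Sult3a1 was 2.40, which edgeR did not call (adjusted p = 0.811). Those for Sult3a2, Sult1e1 and Sult1b1 were then 3.26 (adjusted p = 0.811), 4.48 (adjusted p = 0.962) and 1.12 (adjusted p = 0.962). As each library was left out in turn, Sult3a2 ranged from 0.74 without IVF female replicate 2 to 2.89 without natural female replicate 2. Sult2a1 and Sult2a2, Sult1a1, Sult1c2, Sult1d1 and Sult5a1 overlapped between the female groups as well.

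In males 0 of the 10 genes were called, and 0.00757% of all genes tested, which is 1 gene. At an unadjusted p under 0.05 there were 3 of the 10 by edgeR, Sult1a1, Sult1d1 and Sult1e1, and 355 of all genes, or 2.69%. DESeq2 and limma voom called 0 of the 10. Sult1a1 was lower in all IVF males than in all natural males, by -1.03 ± 0.33 on the log2 scale (SE; unadjusted p = 0.00960, adjusted p = 1). Sult1d1 was lower by -1.02 ± 0.30 (unadjusted p = 0.00557, adjusted p = 1), with overlap between 1 IVF and 1 natural library. Sult1e1 was lower by -3.60 ± 1.36 (adjusted p = 1) from 0 to 2 counts against 5 to 38, without overlap. Sult1c2 was 0.73 ± 0.37 higher without overlap (adjusted p = 1), and 8.91% of all genes did not overlap between the male groups.

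Beside these male values stand other differences between the same libraries. The summed hepatocyte markers were 71549 to 81297 CPM in IVF males and 84605 to 94291 CPM in natural males, without overlap, and none of the 8 was called. The acute phase genes Saa1, Saa2, Orm2, Lcn2, Hp and Hpx, which the liver raises in inflammation, summed to 6897 to 16789 CPM in IVF males and 10389 to 43046 CPM in natural males. In females they summed to 3886 to 8896 CPM. The summed level of the 6 macrophage markers given above did not overlap between these groups either. Of the 6, 4 did not overlap singly and were lower in IVF males at an unadjusted p under 0.05 (Clec4f, Adgre1, Cd5l and Vsig4), and Marco and Cd68 overlapped. None of the 6 was called. Of all genes, 8.91% did not overlap between the male groups, in either direction, and 2.69% had an unadjusted p under 0.05 by edgeR. The part of these values in the male results was not tested.

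The sexes were then compared for their response to IVF. The interaction term, male IVF effect minus female IVF effect, was called by edgeR for 0 of the 10 genes and for 0% of all genes. At an unadjusted p under 0.05 there were 3 of the 10, and 511 of all genes, or 3.87%. Sult1e1 had -6.60 ± 1.62 on the log2 scale (SE; unadjusted p = 0.00164, adjusted p = 0.9999), Sult1a1 -1.15 ± 0.47 and Sult1d1 -1.13 ± 0.42, both also at 0.9999. DESeq2's Wald test called Sult1e1 alone among the 10 (adjusted p = 0.0333), and limma voom called 0 of the 10. All 3 differences have the same sign, with IVF males lower relative to natural males than IVF females were to natural females. The comparisons share libraries, so they are not separate observations.

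**Figure D4:**
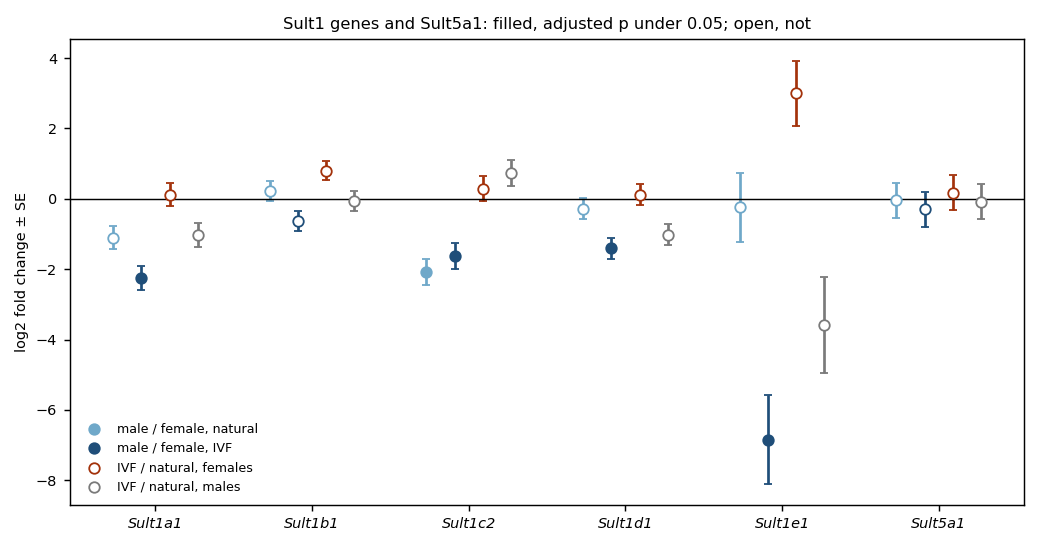
Log2 fold changes with standard errors from edgeR for the 5 Sult1 genes and Sult5a1, for both sex comparisons and both IVF comparisons. Filled points have an adjusted p-value under 0.05. Sult1e1 lies at 3.00 for IVF in females and at -3.60 for IVF in males, both open, and at -6.84 between the sexes after IVF.

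The supply of the sulfate donor was examined in 12 genes, of which 11 were in the table and 10 were tested. Of these, 1 was called lower in IVF males than in IVF females and 1 on average, the same gene in both, and 0 in natural animals. The shares of all genes called lower in males were 1.28%, 3.63% and 0.879% in these contrasts. That gene was Papss2, a PAPS synthase, which makes the donor for the sulfotransferases. It had 261, 700 and 322 CPM in natural females, 987, 415 and 397 in IVF females, 205, 166 and 206 in natural males and 107, 177 and 82.8 in IVF males. Its log2 fold change was -2.29 ± 0.46 in IVF animals (SE; adjusted p = 0.0238) and -1.72 ± 0.32 on average (adjusted p = 0.00817 by edgeR). Without both shallow libraries these were -1.77 (adjusted p = 0.0105) and -1.19 (adjusted p = 0.00678). In natural animals the difference was -1.15 ± 0.45 (adjusted p = 0.249), and -0.62 (adjusted p = 0.304) without them. Papss1, the other PAPS synthase listed, was lower in level, at 5.27 to 17.1 CPM, and differed in the other direction. It was 0.58 ± 0.16 higher in males on average, which edgeR did not call (adjusted p = 0.0531).

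Papss2 was also the gene whose pattern was most like that of Sult1a1 among 11802 genes averaging 1 CPM or more, with the other members left out. Pearson's r of log2 CPM was 0.96 over the 12 libraries, 0.95 within the 6 females and 0.85 within the 6 males. In both female groups the highest Papss2 library was the shallow one, as for Sult1a1, so that depth and library differences are shared by these points. The next most similar genes were Lilra5 and Cwf19l1, with r of 0.96 each.

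**Figure D5:**
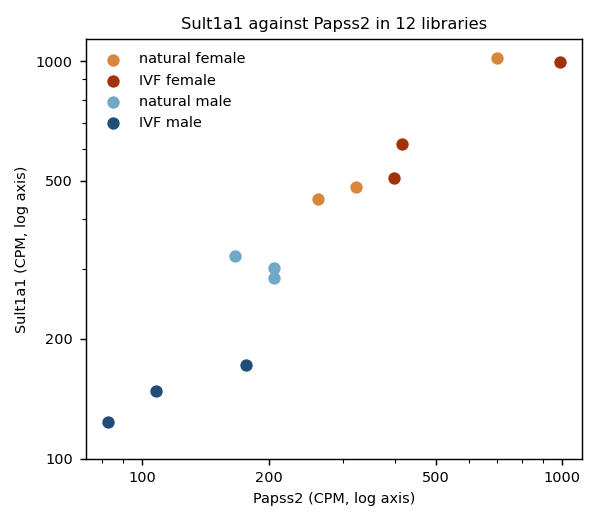
Sult1a1 against Papss2 in CPM (log axes), 1 point per library and 3 per group. IVF males lie lowest, with Papss2 at 82.8 to 177 CPM and Sult1a1 at 124 to 172 CPM, and the 2 points at the upper right are the shallow libraries, IVF female replicate 1 and natural female replicate 2.

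Patterns like those of the other genes were searched by the same measure. The other members were left out of each search, so no member could be named as nearest to another. Over 12 libraries Sult1c2 was most like Idh2 (r = 0.95), but its sexes do not overlap, and within the 6 females r was 0.87 and within the 6 males 0.56. Sult1d1 was most like Got1 (0.90 over 12 libraries, 0.79 in females, 0.89 in males). Sult1b1 was most like Mut (0.91, 0.91 and 0.92), Sult1e1 like Txndc16 (0.91, 0.90 and 0.86) and Sult5a1 like Tada3 (0.87, 0.88 and 0.82). For the 4 female-restricted genes the sexes form separate clusters, so the 6 female libraries were used. There Sult3a2 was most like Dnajc10 (r = 0.996) and Sult3a1 like Exd1 (0.982), and both of these were among the 3 nearest genes of each. Sult2a1 was most like Ubtd2 (0.98) and Sult2a2 like Foxp2 (0.99), and they had none of their 3 nearest genes in common. These values were picked as the highest of 11800 genes over 6 libraries that differ in depth. Nothing is read from their size or from which genes were nearest.

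Sulfatases remove sulfate groups. Of 15 listed, 14 were in the table and 12 were tested, and 2 were called higher and 1 lower in males on average, against 7.2% of all genes called in either direction. Arsa, the lysosomal arylsulfatase A, was higher in males by 1.82 ± 0.31 on the log2 scale (SE), Galns, which acts on keratan sulfate, by 1.28 ± 0.22. Sulf2, a secreted heparan sulfatase, was lower by -1.09 ± 0.25. In natural animals 1 of the 12 was called (Galns, higher), against 1.77% of all genes, and in IVF animals 1 (Arsa, higher), against 2.19%.

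Of 27 transcription factors and receptors known to act on sex-biased or liver-specific genes, 3 were called lower in males among natural animals (Cux2, Trim24 and Prlr), where 1.77% of all genes were called in either direction. Among IVF animals the same 3 and Esr1 were called, against 2.19% of all genes. Cux2, a repressor known from female liver, had 8.31 to 39.6 CPM in females and 0.119 to 0.443 CPM in males. Its lowest female libraries were both shallow ones and natural female replicate 1, with 8.31 to 10.8 CPM. Bcl6, a repressor known from male liver, had 14.6 to 85.6 CPM in males and 7.67 to 20.5 CPM in females and was called higher on average (log2 fold change 2.02 ± 0.42, SE; adjusted p = 0.0149), although its libraries overlapped between the sexes.

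Prlr, the prolactin receptor, was lower in males by -2.38 ± 0.19 (SE) on average, and Trim24, a cofactor of nuclear receptors, by -2.08 ± 0.23. On average 3 of the 27 were called higher in males (Bcl6, Foxa3 and Cebpb) and 5 lower (Cux2, Trim24, Prlr, Esr1 and Stat5a), against 7.2% of all genes called in either direction. Esr1, the receptor for the estrogens that Sult1e1 inactivates, had 67.2, 74.3 and 68.5 CPM in IVF females and 37.9, 27.6 and 37.2 in natural females. Like Sult1e1, it did not overlap between these groups, as 7.42% of all genes did not, and was not called by edgeR (adjusted p = 1). In males Esr1 had 16.8, 14.02 and 10.5 CPM after IVF and 17.4, 22.6 and 26.9 CPM in natural animals, lower after IVF without overlap, as between the male groups for 8.91% of all genes in either direction (adjusted p = 1 by edgeR). The interaction was not called either (adjusted p = 0.878). No factor of the list was called for IVF in either sex or for the interaction.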

How the data were processed

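Per the labels' protocols, RNA was extracted from frozen liver with TRIzol and phenol-chloroform, selected for poly-A and sequenced on a NextSeq 500. The authors deposited whole-number read counts per gene symbol, 1 column per library. The submitters' processing notes name Trimmomatic 0.32, STAR 2.3.0e, featureCounts 1.5.0 and mm10. The annotation, strand setting and treatment of reads matching several genes are not given in the sources used here. 0 rows named no gene, and 0 columns were left unassigned.

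From these counts, edgeR 4.0.16 (R 4.3.3) fitted 1 mean per group over 12 libraries, with filterByExpr, TMM and the quasi-likelihood test. Genes passed as called below 0.05 after Benjamini-Hochberg adjustment over all genes tested. CPM use TMM-scaled totals and RPKM GENCODE M21 exon lengths, which may differ from the authors' models. log2 CPM for likeness used a prior count of 2. Floors are 3 counts, and intervals are 95% exact binomial. A count of 3 is 0.119 CPM in the deepest library and 0.445 CPM in the shallowest. Identity came from pairwise alignment (Biopython 1.88).

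All 10 sulfotransferases are named. Of the lists on sulfate, sulfatases and regulators, genes called in any of the 6 contrasts were named, and Papss1 was added beside Papss2. Marker lists are given by their members, called or not, outside this rule. For likeness the 3 genes of highest r that are not members were taken. The members and lists were chosen with earlier results of these data known. Replicates were numbered in accession order and pair no samples. Alternatives were DESeq2 1.42.0, limma voom (limma 3.58.1), other scalings, filters and thresholds, summed paralogs, a covariate for the shallow libraries and leaving out each library. The model code was tested on simulated data. An exact permutation test planned for the summed sulfotransferase level between the sexes was not run, so that no p-value is given for a sum over the members.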

Additional observations from a re-analysis of the deposited data

Results flagged for a closer look

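Sult1e1 was flagged among the sulfotransferases described here because its IVF and natural libraries differed in opposite directions in the sexes. Each of the 3 IVF females was above each of the 3 natural females, and each of the 3 IVF males was below each of the 3 natural males. The male effect of IVF minus the female effect was -6.60 on the log2 scale. The difference itself was tested as the interaction, which edgeR did not call (adjusted p = 0.9999 over all genes) and DESeq2's Wald test did (adjusted p = 0.0333). The male values rest on 0 to 2 counts in IVF and 5 to 38 counts in natural libraries. Of all genes, 7.42% did not overlap between the female groups and 8.91% between the male groups, in either direction. How many genes did so in both sexes with opposite signs was not counted, so how unusual Sult1e1 is cannot be said. Esr1, described above, had the same opposed pattern without overlap.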

How the results depend on the processing

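The count of called sulfotransferases stayed within 1.5 times of its value under every alternative run, apart from those named here. Without IVF male replicate 1 or IVF male replicate 3, 5 of the 10 genes were called between the sexes in IVF animals, so that leaving out 1 library gave 5 to 8. It gave 4 to 5 in natural animals and 6 to 8 on average. The DESeq2 Wald test called 1 gene for the interaction, Sult1e1, where edgeR called 0. The averaged sex difference of Sult5a1, not called in any fit, ranged from -0.35 to 0.23 on the log2 scale as each library was left out, positive without IVF female replicate 3 (0.23) or natural female replicate 1 (0.09). The natural sex difference of Sult1b1, not called, ranged from -0.020 (without natural female replicate 3) to 0.38 and was -0.061 with library size alone. Calls of Sult1c2 and Sult1d1 in IVF animals were lost in 7 of 12 such fits each, and that of Sult1e1 in 3. On average the call of Sult1d1 was lost in 8 and that of Sult1e1 in 4, and in natural animals that of Sult1c2 in 3. The causes were not tested. Over all genes, DESeq2 called 678, 721 and 1693 genes in the natural, IVF and averaged sex contrasts, where edgeR called 234, 289 and 951. For IVF in females, IVF in males and the interaction DESeq2 called 4, 5 and 9 genes and edgeR 0, 1 and 0. Leaving out 1 library moved the edgeR counts to 111 to 263, 137 to 348 and 519 to 810. Other settings gave 139 to 510, 201 to 495 and 532 to 1626, lowest with only the 6 compared libraries or, on average, with a fold change minimum. No paired analysis was possible because replicate numbers follow accession order and the groups share fewer than 2 of the numbers in the sample titles: 1 such number, whose meaning the labels do not give, stands in an IVF female and an IVF male title. Depth limits the low genes: 3 counts in the shallowest library, an IVF female, are 0.445 CPM. In the IVF male libraries 3 counts are 0.148 to 0.206 CPM, and Sult1e1 lay below that floor in each of them.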
